A study of Mus musculus with 6 samples.

Results

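The interferon response and MHC class I genes are a set of 36 mouse genes, taken by symbol from the 24594 Entrez gene IDs of a count table and read in 2 arms. The antiviral arm holds 29 genes and the antigen presentation arm holds 7. RNA-seq read counts came from organoids, small epithelial structures grown in a gel from adult crypts of the proximal small intestine. There were 3 doxycycline libraries and 3 control libraries, and all 6 carried the TetON-hYAP/H2B-mCherry transgene. That transgene is a doxycycline-switched human YAP, described in the study's design text as a constitutively active S127A mutant, with a red fluorescent histone. YAP is a transcriptional coactivator that the Hippo pathway holds in check. The doxycycline organoids had 1 µg/ml for 48 h from passaging and the control organoids had none, in a medium with EGF, Noggin and R-spondin1. The age of the animals is given only as adult, and the protocols state 1 individual per crypt sample without naming which animal gave which library. No library of organoids with doxycycline and without the transgene was analysed here, so effects of the drug and of the transgene cannot be told apart.

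Interferons are secreted proteins that bind receptors on the cell surface and act through Jak kinases. Type I and type III interferons activate Stat2, which with Irf9 acts at a DNA element, the interferon-stimulated response element or ISRE, in front of genes that block viruses. Type II interferon acts through another element, GAS. MHC class I molecules, a heavy chain such as H2-K1 or H2-D1 with the light chain B2m, show peptides from inside the cell to CD8 T cells, and their genes are inducible by interferons. In the gut epithelium type III interferon is the better known antiviral signal.

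Libraries held 11258768 to 16803062 counts with doxycycline and 8533452 to 14643817 in the controls. The YAP target genes Ccn1 and Ccn2 checked the labels: Ccn2 had 149, 145 and 139 CPM (read counts scaled by library size and TMM, the unit of all levels given here) in the doxycycline libraries, against 3.51, 3.54 and 3.32 CPM in the control libraries. Mouse Yap1 had 142, 149 and 146 CPM with doxycycline, against 231, 236 and 156 CPM in the controls, and the human transgene was not analysed here. Epithelial markers summed to 10275 to 10925 CPM in the doxycycline libraries and 3556 to 4308 CPM in the control libraries. Of these 8 markers 5 rose, 1 fell and 2 did not pass, with log2 fold changes from -4.14 to 2.90. Enterocyte markers summed to 19737 to 20992 CPM in the doxycycline libraries and 2554 to 4115 CPM in the control libraries, and 9 of 10 rose. Stem cell markers summed to 44.0 to 50.3 CPM in the doxycycline libraries and 3886 to 5332 CPM in the control libraries, and 5 of 5 fell. Paneth cell markers summed to 34.1 to 39.1 CPM in the doxycycline libraries and 2296 to 4684 CPM in the control libraries, and 6 of 6 fell. In such bulk samples fewer cells of a type and less RNA per cell cannot be told apart. Among 18 immune markers, Cd4, Cd8a, Cd8b1, Gzma and Tyrobp had no count in any library, and the 14 markers other than Csf1r, Itgam, Cd68 and Lyz2 summed to 0.101 to 2.05 CPM with doxycycline and 1.35 to 1.54 CPM in the controls. Control replicate 3 stood apart from the other libraries. It had 38.6% of its counts on genes with over 5000 bp of exons, against 47.8 to 51.7% in the other 5 libraries, and 7.77% on genes under 1500 bp, against 3.76 to 4.12%. Its log2 CPM correlated with those of the other controls at r = 0.916 and 0.919, against 0.991 between controls 1 and 2, so results are given with and without it.

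No antiviral gene fell and 13 rose. Of its 29 genes 25 passed the expression filter, and 13 of these rose, none fell and 12 did not pass (edgeR quasi-likelihood test, Benjamini-Hochberg adjusted p under 0.05), where 21.7% of all 12909 genes tested rose and 23.6% fell. The 13 were Irf7, Stat2, Ddx58, Ifih1, Ifit1, Ifit3, Mx1, Rsad2, Oasl2, Isg15, Trim25, Rtp4 and Xaf1. The median log2 fold change of doxycycline over control was 0.67 over the 25, against -0.08 over all genes tested. Without control replicate 3 the count was 17 of 25, where 34.9% of all genes rose, and the median was 0.69. It was 8 without control replicate 1, where 18.8% of all genes were higher, and 7 without doxycycline replicate 2, where 14.9% were. With doxycycline replicate 3 left out it was 5 of 25, where 14.8% of all genes were higher, close to that share. Scaled by total counts alone the data gave 8 of 25, where 13.5% of all genes rose and 39.7% fell. In 17 of 25 every doxycycline library lay above every control library, where 30.0% of all genes did so. The 25 were also split at a control mean of 10 CPM, a bound chosen after the values were seen. Under it 9 of 13 rose, with a median of 1.34, where 23.2% of all genes at that level rose. At or over it 4 of 12 rose, with a median of 0.35, where 21.1% of all genes at that level rose. The filter keeps a gene that is expressed in either group, so the 25 are not all members. A gene that passes only in the group where it is high enters the count as a difference.

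**Figure D1:**
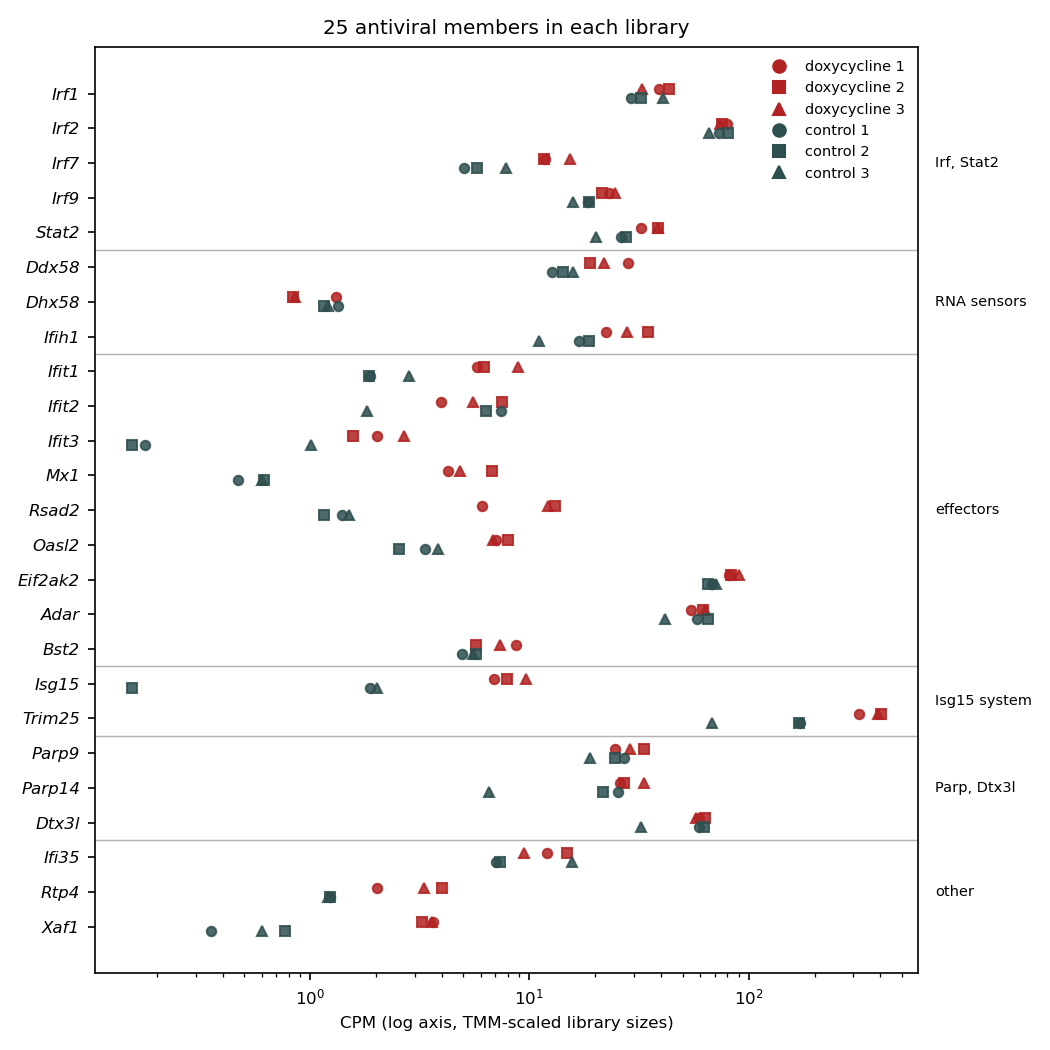
Level of the 25 antiviral genes tested in each of the 6 libraries, in CPM on a log axis, grouped by role; red marks doxycycline libraries, dark grey marks control libraries, and the shape gives the replicate number. Mx1, Rsad2, Isg15 and Xaf1 show the widest gaps between the groups, and Irf2, Adar and Dtx3l overlap.

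Promoter sequences are given first for the members that carry the antiviral result, because the ISRE is the element at which Stat2 and Irf9 act. RefSeq start-site windows of GRCm38.p6, 250 bases before to 50 bases after a start, matched 27 of the 36 members. Mx1, Rtp4 and Tap2, which rose, had no window and were not searched. The ISRE was searched on both strands as GAAA, then any 2 bases, then GAAA. It was present in 13 of 27 members (48.1%), against 3.46% of the 10267 tested genes that have a window. Among members that rose it was in 7 of 11, namely Ddx58, Ifih1, Ifit1, Ifit3, Isg15, Rsad2 and Stat2, and among tested members that did not pass it was in 4 of 14, namely B2m, Bst2, Eif2ak2 and Irf2. The GAS element, TTC and GAA with any 3 bases between them, was in 8 of 27 members (29.6%), against 8.19% of tested genes with a window. It was in none of the 11 that rose and in 7 of the 14 tested members that did not pass. GGAATG, the core that TEAD factors, the DNA-binding partners of YAP, are known to bind, was in 2 of 27 (Bst2 and Gbp2, 7.41%), against 14.6%. A match is a description of letters and not a site in use.

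The 4 members with the largest log2 fold change among those that rose and hold an ISRE or a GAS element were Rsad2, Isg15, Ifit3 and Ifit1, and their 250 bases before the start follow, 5′ to 3′ in the direction of the gene, with every ISRE match in capitals. The Rsad2 window is chr12:26456453-26456702 (minus strand), Isg15 is chr4:156200819-156201068 (minus strand), Ifit3 is chr19:34583279-34583528 (plus strand) and Ifit1 is chr19:34640639-34640888 (plus strand). The Ifit3 window ends at a RefSeq transcript start inside the annotated gene span. Rsad2 has 1 match, 120 to 111 bases before its start. Isg15 has 3 that overlap, between 78 and 57 bases before its start. Ifit3 has 2, at 156 to 147 and 122 to 113, and Ifit1 has 2, at 104 to 95 and 85 to 76.
Rsad2: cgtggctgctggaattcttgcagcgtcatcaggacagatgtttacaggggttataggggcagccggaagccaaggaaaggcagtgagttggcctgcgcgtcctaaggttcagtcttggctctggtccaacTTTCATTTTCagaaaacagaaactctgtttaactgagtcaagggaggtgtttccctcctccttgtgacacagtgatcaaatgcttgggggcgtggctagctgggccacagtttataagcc
Isg15: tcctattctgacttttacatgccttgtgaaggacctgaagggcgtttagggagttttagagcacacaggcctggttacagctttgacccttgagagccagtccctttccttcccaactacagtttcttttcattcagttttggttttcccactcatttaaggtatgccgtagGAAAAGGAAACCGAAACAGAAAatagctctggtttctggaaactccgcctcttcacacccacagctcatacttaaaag
Ifit3: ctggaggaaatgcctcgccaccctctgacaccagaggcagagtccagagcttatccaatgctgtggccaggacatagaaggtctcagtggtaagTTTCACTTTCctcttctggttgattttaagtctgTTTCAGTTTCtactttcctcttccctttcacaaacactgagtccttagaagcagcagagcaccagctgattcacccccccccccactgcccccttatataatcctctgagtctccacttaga
Ifit1: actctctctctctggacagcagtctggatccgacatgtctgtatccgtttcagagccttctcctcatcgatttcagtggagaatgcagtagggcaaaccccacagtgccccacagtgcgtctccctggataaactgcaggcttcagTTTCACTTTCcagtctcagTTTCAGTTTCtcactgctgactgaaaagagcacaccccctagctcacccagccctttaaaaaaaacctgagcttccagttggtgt

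The same stretch is given for H2-K1, chr17:34000348-34000597 (minus strand), and Tap1, chr17:34187306-34187555 (plus strand), of the antigen presentation arm, and held no match to the ISRE letters. The H2-K1 stretch lies inside the annotated gene span, before a transcript start, and a second RefSeq window of H2-K1, 14 bases further along, held no match either. The search took exact letters only, so the lack of a match does not show that such an element is absent. Of the 5 antigen presentation genes with a window, 1 had an ISRE (B2m), and 4 of the 11 members that rose and have a window had none, so the printed sequences do not stand for either set.
H2-K1: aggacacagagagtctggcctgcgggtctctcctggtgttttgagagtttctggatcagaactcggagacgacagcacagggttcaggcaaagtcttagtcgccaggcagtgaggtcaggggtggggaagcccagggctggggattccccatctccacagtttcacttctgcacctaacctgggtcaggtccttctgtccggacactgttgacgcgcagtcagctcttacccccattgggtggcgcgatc
Tap1: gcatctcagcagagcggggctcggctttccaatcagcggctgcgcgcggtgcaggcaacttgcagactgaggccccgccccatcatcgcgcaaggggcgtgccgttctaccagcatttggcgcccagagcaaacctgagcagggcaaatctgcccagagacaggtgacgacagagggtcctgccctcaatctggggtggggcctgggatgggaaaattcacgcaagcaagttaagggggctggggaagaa

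Among the transcription factors 2 of 5 rose, where 21.7% of all genes tested did. Irf7 (chr7:141263183-141266499), the factor that amplifies type I interferon transcription, had 11.7, 11.7 and 15.3 CPM in the doxycycline libraries, against 5.03, 5.77 and 7.85 CPM in the control libraries. It rose by 1.06 on the log2 scale (SE 0.25, edgeR adjusted p = 0.0133), and the groups did not overlap. Stat2 (chr10:128270498-128292853), the partner of Irf9, had 32.4, 38.8 and 38.8 CPM in the doxycycline libraries, against 26.1, 27.6 and 20.2 CPM in the control libraries. It rose by 0.57 on the log2 scale (SE 0.19, edgeR adjusted p = 0.0403). With every library set against the other group, the lowest doxycycline value of Stat2 lay above the highest control value. The call for Irf7 was lost without doxycycline 3 (edgeR adjusted p = 0.0620) and with total counts as scaling (adjusted p = 0.0741). For Stat2 it was lost without control 1, control 2, doxycycline 1, doxycycline 2 or doxycycline 3 (edgeR adjusted p = 0.0575 to 0.136), with total counts as scaling (adjusted p = 0.580) and without the low-count filter (adjusted p = 0.0539).

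Irf9 (chr14:55603985-55610030), which gives Stat2 its DNA contact, had 23.1, 21.4 and 24.5 CPM in the doxycycline libraries, against 18.6, 18.7 and 15.8 CPM in the control libraries. These did not overlap but did not pass (log2 fold change 0.38, SE 0.17, edgeR adjusted p = 0.108). Irf1 (chr11:53770014-53778374), an activator best known downstream of type II interferon, had 39.1, 43.2 and 32.7 CPM in the doxycycline libraries, against 29.1, 32.3 and 40.7 CPM in the control libraries, which overlapped (log2 fold change 0.17, SE 0.19, edgeR adjusted p = 0.500). Irf2 (chr8:46739745-46847458), which binds the same elements and can oppose Irf1, had 79.7, 75.8 and 74.5 CPM in the doxycycline libraries, against 73.2, 80.7 and 66.0 CPM in the control libraries, and these overlapped too (log2 fold change 0.06, SE 0.15, edgeR adjusted p = 0.751). Without control replicate 3 Irf9 and Irf1 passed, at 0.32 (SE 0.13, edgeR adjusted p = 0.0411) and 0.33 (SE 0.13, edgeR adjusted p = 0.0250), and Irf2 did not, at 0.01 (SE 0.09, edgeR adjusted p = 0.935).

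Of the 3 cytoplasmic RNA sensors, 2 rose, where 21.7% of all genes tested did. Ddx58 (chr4:40203777-40239825), which encodes RIG-I, the sensor of short double-stranded RNA, had 28.2, 19.0 and 21.9 CPM in the doxycycline libraries, against 12.6, 14.2 and 15.8 CPM in the control libraries. It rose by 0.70 on the log2 scale (SE 0.21, edgeR adjusted p = 0.0329). Ifih1 (chr2:62595618-62646255), which encodes MDA5, the sensor of long double-stranded RNA, had 22.5, 34.7 and 27.9 CPM in the doxycycline libraries, against 16.8, 18.7 and 11.1 CPM in the control libraries. It rose by 0.86 on the log2 scale (SE 0.26, edgeR adjusted p = 0.0336). Neither gene overlapped between groups. Dhx58, which encodes LGP2, a relative without the signalling domains, averaged 0.998 ± 0.274 CPM in the doxycycline libraries and 1.24 ± 0.0983 CPM in the controls (SD, n = 3 each), with overlapping libraries (log2 fold change -0.32, SE 0.36, edgeR adjusted p = 0.496). The call for Ddx58 was lost without control 1, control 2, doxycycline 1 or doxycycline 3 (edgeR adjusted p = 0.0847 to 0.119) and with total counts as scaling (adjusted p = 0.355). For Ifih1 it was lost without control 1, doxycycline 2 or doxycycline 3 (edgeR adjusted p = 0.0598 to 0.128) and with total counts as scaling (adjusted p = 0.207).

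The antiviral effectors held the largest changes. Mx1 (chr16:97447035-97462906), a dynamin-like GTPase that blocks influenza-type viruses in mice, had 4.25, 6.75 and 4.81 CPM in the doxycycline libraries, against 0.468, 0.616 and 0.604 CPM in the control libraries. It rose by 3.22 on the log2 scale (SE 0.35, edgeR adjusted p = 5.18e-04). Mx1 was under 1 CPM in every control library and over 4 CPM in every doxycycline library. Rsad2 (chr12:26442743-26456452), which encodes viperin, an enzyme that makes a chain-terminating nucleotide, had 6.07, 13.1 and 12.2 CPM in the doxycycline libraries, against 1.40, 1.15 and 1.51 CPM in the control libraries. It rose by 2.94 on the log2 scale (SE 0.37, edgeR adjusted p = 0.00106). The lowest Rsad2 value with doxycycline was 6.07 CPM and the highest control value was 1.51 CPM.

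Ifit1 (chr19:34640889-34650009), which binds foreign RNA caps, had 5.76, 6.20 and 8.83 CPM in the doxycycline libraries, against 1.87, 1.85 and 2.82 CPM in the control libraries. It rose by 1.68 on the log2 scale (SE 0.31, edgeR adjusted p = 0.00463). Its locus lies inside the annotated span of Ifit1bl1, a related gene picked with its values in view, which averaged 24.6 CPM with doxycycline and 13.6 CPM in the controls. The counting rule for shared reads was not stated, which leaves the split between these genes uncertain. Ifit3 (chr19:34583119-34588982), its binding partner, had 2.02, 1.57 and 2.69 CPM in the doxycycline libraries, against 0.175, 0.154 and 1.01 CPM in the control libraries. It rose by 2.37 on the log2 scale (SE 0.69, edgeR adjusted p = 0.0289), and without control replicate 3 the estimate was 3.61 (SE 0.64, edgeR adjusted p = 5.16e-05). Its call was lost without control 1, control 2, doxycycline 1, doxycycline 2 or doxycycline 3 (edgeR adjusted p = 0.0636 to 0.105). Controls 1 and 2 had 3 and 2 counts of Ifit3 and control 3 had 10. Ifit3 has a near copy, Ifit3b, which makes its counts uncertain too. Ifit2 (chr19:34550550-34576534), the third family member in the same cluster, averaged 5.65 ± 1.78 CPM in the doxycycline libraries and 5.18 ± 2.97 CPM in the controls (SD, n = 3 each). It overlapped (log2 fold change 0.11, SE 0.51, edgeR adjusted p = 0.883), and its estimate was -0.27 (SE 0.25, edgeR adjusted p = 0.349) without control replicate 3.

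Oasl2 (chr5:114896926-114912245), an oligoadenylate synthetase-like protein, had 7.08, 7.96 and 6.86 CPM in the doxycycline libraries, against 3.33, 2.54 and 3.82 CPM in the control libraries. It rose by 1.18 on the log2 scale (SE 0.25, edgeR adjusted p = 0.00853), with no overlap. Eif2ak2, which encodes PKR, the kinase that stops translation on sensing double-stranded RNA, averaged 85.2 ± 4.55 CPM in the doxycycline libraries and 68.2 ± 2.77 CPM in the controls (SD, n = 3 each). Its groups did not overlap and it did not pass (log2 fold change 0.32, SE 0.14, edgeR adjusted p = 0.0993), while DESeq2 called it, with adjusted p = 0.0215. Leaving out control 3, the estimate for this gene was 0.36 (SE 0.09, edgeR adjusted p = 0.00106). Adar, which edits adenosine to inosine in double-stranded RNA, averaged 60.1 ± 4.54 CPM in the doxycycline libraries and 55.1 ± 12.4 CPM in the controls (SD, n = 3 each) and overlapped (log2 fold change 0.12, SE 0.20, edgeR adjusted p = 0.652). Bst2, which encodes tetherin, the protein that holds budding viruses at the membrane, averaged 7.26 ± 1.48 CPM in the doxycycline libraries and 5.38 ± 0.414 CPM in the controls (SD, n = 3 each) and did not pass (log2 fold change 0.43, SE 0.24, edgeR adjusted p = 0.185). Of the 9 effectors tested, 5 rose, where 21.7% of all genes tested did, and the median log2 fold change of the 9 was 1.18. Mx1, Rsad2, Ifit1 and Oasl2 kept the call under every one of 13 alternatives.

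Both tested genes of the Isg15 system rose, where 21.7% of all genes tested did. Isg15 (chr4:156199424-156200818), a ubiquitin-like protein that is attached to newly made proteins, had 6.88, 7.86 and 9.68 CPM in the doxycycline libraries, against 1.87, 0.154 and 2.01 CPM in the control libraries. It rose by 2.60 on the log2 scale (SE 0.66, edgeR adjusted p = 0.0171), and every doxycycline library lay above every control library. Control replicate 2 had 2 Isg15 counts, so the control level rests on few reads. The call for Isg15 was lost without doxycycline 2 or doxycycline 3 (edgeR adjusted p = 0.0545 to 0.0630). Trim25 (chr11:88999403-89020294), a ubiquitin ligase that acts on RIG-I and can ligate Isg15, had 318, 402 and 392 CPM in the doxycycline libraries, against 172, 170.3 and 68.0 CPM in the control libraries. It rose by 1.44 on the log2 scale (SE 0.36, edgeR adjusted p = 0.0161). Control replicate 3 was the lowest for Trim25, and without it the estimate was 1.13 (SE 0.09, edgeR adjusted p = 4.27e-09). The call for Trim25 was lost without doxycycline 2 or doxycycline 3 (edgeR adjusted p = 0.0561 to 0.0590). Per kb of merged exons Trim25 was the highest of the antiviral genes tested, with 64.4 CPM per kb with doxycycline and 23.8 CPM per kb in the controls, followed by Eif2ak2 with 16.7 CPM per kb with doxycycline and 13.3 CPM per kb in the controls.

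Parp9, Dtx3l and Parp14 lie side by side on chromosome 16, and Parp9 and Dtx3l form an ADP-ribosylating ubiquitin ligase and share 558 bp of annotation. Parp9 averaged 29.0 ± 4.42 CPM in the doxycycline libraries and 23.5 ± 4.17 CPM in the controls (SD, n = 3 each; log2 fold change 0.30, SE 0.21, edgeR adjusted p = 0.273). Dtx3l averaged 60.1 ± 2.68 CPM in the doxycycline libraries and 51.3 ± 16.6 CPM in the controls (SD, n = 3 each; log2 fold change 0.23, SE 0.26, edgeR adjusted p = 0.507). Parp14 had 26.0, 26.9 and 33.2 CPM in the doxycycline libraries, against 25.4, 21.8 and 6.54 CPM in the control libraries and did not pass (log2 fold change 0.67, SE 0.45, edgeR adjusted p = 0.262). None of the 3 passed, with or without control replicate 3. That library was the lowest in all 3, and the merged exons of Parp14 measure 9306 bp. The part of its low share of counts on long genes in these values was not tested.

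Of the remaining antiviral genes, Xaf1 (chr11:72301461-72313733), a protein that promotes cell death by countering the inhibitor XIAP, had 3.64, 3.24 and 3.60 CPM in the doxycycline libraries, against 0.351, 0.770 and 0.604 CPM in the control libraries. It rose by 2.61 on the log2 scale (SE 0.38, edgeR adjusted p = 0.00163). All 13 alternatives kept that call. Rtp4 (chr16:23520219-23614222), a receptor-transporting protein, had 2.02, 3.98 and 3.32 CPM in the doxycycline libraries, against 1.23, 1.23 and 1.21 CPM in the control libraries. It rose by 1.34 on the log2 scale (SE 0.35, edgeR adjusted p = 0.0187). The call for Rtp4 was lost without control 1, control 2, doxycycline 2 or doxycycline 3 (edgeR adjusted p = 0.0547 to 0.0807) and with total counts as scaling (adjusted p = 0.0628). Ifi35, an interferon-induced leucine zipper protein, averaged 12.1 ± 2.67 CPM in the doxycycline libraries and 10.0 ± 4.86 CPM in the controls (SD, n = 3 each). It overlapped and did not pass (log2 fold change 0.28, SE 0.37, edgeR adjusted p = 0.561), with control replicate 3 the highest of all 6 libraries, and without that library its estimate was 0.76 (SE 0.21, edgeR adjusted p = 0.00337).

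The remaining 5 members did not pass the expression filter and were tested only in a fit without it. Gbp2, a guanylate-binding GTPase, had 14 counts summed over the doxycycline libraries and none in the controls. Against a floor of 3 counts over the control group the scaled ratio was 5.36, which takes the 14 counts as exact and has no interval. Usp18, which removes Isg15 and damps the type I receptor, had 10 counts with doxycycline and 1 in the controls, a scaled ratio of 11.5 (95% counting interval 1.63 to 498). Both were higher with doxycycline in every library. Without the filter Gbp2 passed (edgeR adjusted p = 0.0252), and Usp18 did not (edgeR adjusted p = 0.0808). Oas1a had 16 counts with doxycycline and 21 in the controls (ratio 0.875, 0.427 to 1.76). Oas2 had 8 and 12 (ratio 0.766, 0.272 to 2.04). Both make the oligoadenylates that activate RNase L, and neither interval excludes equal levels. Nlrc5, the transactivator of MHC class I genes, had 15 and 10 (ratio 1.72, 0.724 to 4.29). A difference in Nlrc5 was not detectable at this depth. For Oas1a, Oas2 and Nlrc5 the edgeR adjusted p without the filter was 0.827, 0.866 and 0.476. Intervals cover counting error only.

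Few antigen presentation genes passed the test with all 6 libraries. Of 7 genes 6 were tested, and 1 rose (Tap2), none fell and 5 did not pass, where 21.7% of all genes tested rose. The median log2 fold change was 0.34, against -0.08 over all genes. Without control replicate 3 the 6 divided into 5 that were higher and 1 lower (B2m), where 34.9% of all genes were called higher and 35.1% lower, and their median was 0.64. Leaving out control replicate 1 gave a median of 0.16, and leaving out control replicate 2 gave 0.18. Leaving out any 1 of the other 5 libraries left 0 higher and 0 lower.

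The heavy chain gene H2-K1 (chr17:33996012-34000619) had 298, 269.8 and 272 CPM in the doxycycline libraries, against 179, 173 and 347 CPM in the control libraries. The doxycycline libraries were above controls 1 and 2 and below control 3 (log2 fold change 0.26, SE 0.29, edgeR adjusted p = 0.490), and without control 3 the estimate was 0.68 (SE 0.08, edgeR adjusted p = 1.82e-07). H2-D1 (chr17:35263094-35267497), the other classical heavy chain gene of this list, had 209.8, 174 and 190.2 CPM in the doxycycline libraries, against 99.5, 106 and 225 CPM in the control libraries. Its pattern was the same (log2 fold change 0.41, SE 0.33, edgeR adjusted p = 0.341), with an estimate of 0.91 (SE 0.09, edgeR adjusted p = 2.14e-08) without control 3. Near-copies of class I genes can share reads, so values for single class I genes are uncertain. Summed over 13 class I genes, the level was 949.9, 900.0 and 915 CPM with doxycycline, against 482, 467 and 804 CPM in the controls. The sum did not pass (log2 fold change 0.66, SE 0.24, edgeR adjusted p = 0.0618), although no control library reached the lowest doxycycline one. H2-K1 and H2-D1 made up 51.2% of that sum with doxycycline and 64.5% in the controls.

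B2m (chr2:122147687-122153082), the light chain that every classical class I heavy chain needs at the surface, went the other way. It had 75.7, 64.0 and 71.7 CPM in the doxycycline libraries, against 80.7, 84.4 and 226 CPM in the control libraries, so every doxycycline library was below every control library. It did not pass with all libraries (log2 fold change -0.88, SE 0.41, edgeR adjusted p = 0.120) and was lower without control 3, at -0.21 (SE 0.09, edgeR adjusted p = 0.0442). Control 3 was 226 CPM, and the merged exons of B2m measure 860 bp. The part of that library's high share of counts on short genes was not tested.

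Ratios of counts within a library do not depend on scaling. B2m over H2-K1 was 0.254, 0.237 and 0.263 in the doxycycline libraries, against 0.450, 0.487 and 0.650 in the control libraries. B2m over H2-D1 was 0.361, 0.367 and 0.377 with doxycycline, against 0.810, 0.793 and 1.00 in the controls. Both ratios were lower in every doxycycline library, also without control 3. They describe unequal change of the counts assigned to the light and heavy chain genes, were chosen after the values were seen and have no test. The part of reads shared between class I genes, and of gene length, in these ratios was not tested. Per kb of merged exons H2-K1 had 95.3 CPM per kb with doxycycline and 79.4 CPM per kb in the controls. H2-D1 had 74.2 CPM per kb with doxycycline and 55.7 CPM per kb in the controls. B2m had 82.0 CPM per kb with doxycycline and 151 CPM per kb in the controls, so it was the highest of these 3 genes in the controls and lay between H2-K1 and H2-D1 with doxycycline. Control 3 weighs on these means, and over controls 1 and 2 alone B2m had 95.9 CPM per kb, still the highest of these genes.

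The peptide loading genes lie in the same region of chromosome 17. Tap1 (chr17:34187556-34197225) and Tap2 (chr17:34204479-34216321) encode the subunits of the pump that moves peptides into the endoplasmic reticulum. Tap2 had 7.38, 5.27 and 5.02 CPM in the doxycycline libraries, against 1.81, 2.16 and 3.82 CPM in the control libraries. It rose by 1.20 on the log2 scale (SE 0.36, edgeR adjusted p = 0.0321). The call for Tap2 was lost without control 1, control 2, doxycycline 1, doxycycline 2 or doxycycline 3 (edgeR adjusted p = 0.0666 to 0.109) and with total counts as scaling (adjusted p = 0.117). Tap1 had 11.3, 15.9 and 14.4 CPM in the doxycycline libraries, against 10.1, 10.1 and 10.2 CPM in the control libraries, which did not overlap and did not pass (log2 fold change 0.46, SE 0.20, edgeR adjusted p = 0.105). Without control 3 its estimate was 0.48 (SE 0.18, edgeR adjusted p = 0.0235). Tapbp (chr17:33919478-33929290), which encodes tapasin, the bridge between the pump and the heavy chain, had 106, 91.5 and 87.6 CPM in the doxycycline libraries, against 56.9, 69.5 and 117 CPM in the control libraries. Control 3 was again the highest library (log2 fold change 0.23, SE 0.28, edgeR adjusted p = 0.535), and without it the estimate was 0.60 (SE 0.11, edgeR adjusted p = 5.93e-05).

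**Figure D2:**
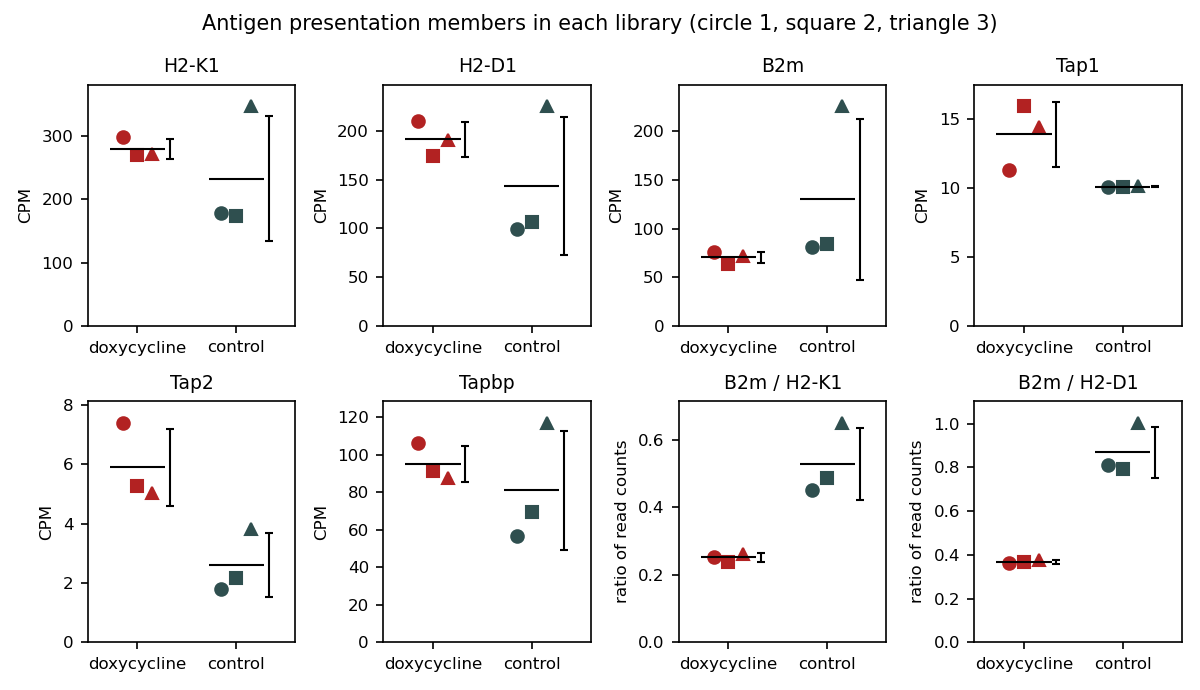
Level of the antigen presentation genes tested in each of the 6 libraries, in CPM, and the ratio of B2m counts to heavy chain counts, with doxycycline libraries in red and control libraries in dark grey; the shape gives the replicate number, lines are means and bars are SD over 3 libraries. Control replicate 3 is the highest library for H2-K1, H2-D1, Tapbp and B2m, and the doxycycline libraries lie above controls 1 and 2 for every gene but B2m.

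**Figure D3:**
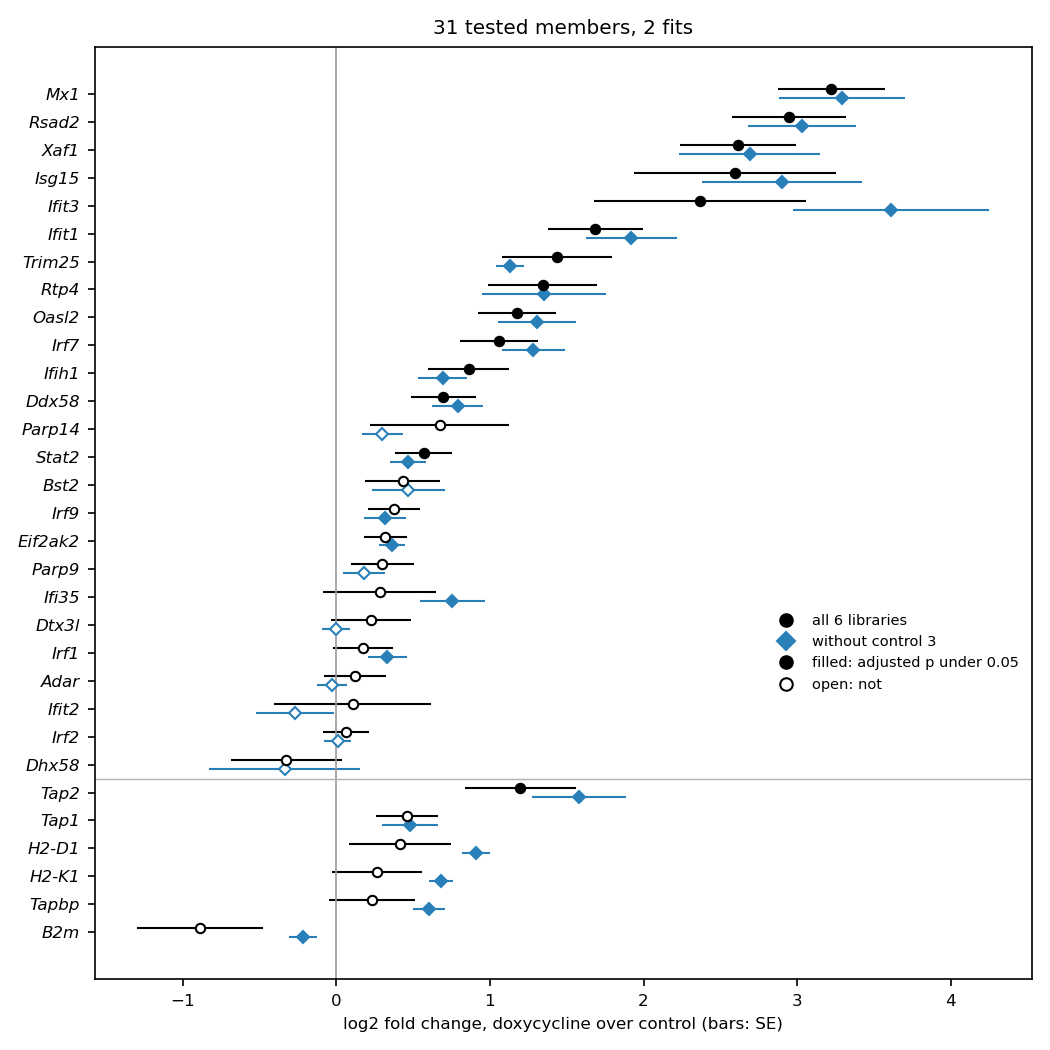
Log2 fold change of doxycycline over control for the 31 members tested, antiviral genes above the line and antigen presentation genes below it; black circles are the fit on all 6 libraries, blue diamonds the fit without control replicate 3, bars are standard errors, and filled marks have an adjusted p under 0.05. Mx1 is highest in the fit on all libraries, at 3.22, and B2m lowest, at -0.88; the heavy chain genes H2-K1 and H2-D1 are filled only without control replicate 3.

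The wider pathway was read from lists of 111 further genes, of which 79 were tested and 24 rose and 8 fell, where 21.7% of all genes rose and 23.6% fell. These counts were 40 and 18 without control replicate 3, where 34.9% of all genes were higher and 35.1% lower. Of 8 interferon ligand genes, 7 had no count in any library (Ifnb1, Ifna2, Ifna4, Ifnl2, Ifnl3, Ifng and Ifne). Ifnk had 3, 2 and 2 counts in the doxycycline libraries, against 0, 0 and 4 in the controls. Each count of 0 allows up to 3 counts per library, and secreted protein was not measured.

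Of 15 receptor and Jak-Stat genes, all tested, 6 rose and none fell, where 21.7% of all genes rose and 23.6% fell. Their median log2 fold change was 0.57. Without control replicate 3, 11 were higher and 1 lower, where 34.9% of all genes were higher and 35.1% lower. Ifnlr1, the receptor chain for type III interferon, had 90.0, 92.0 and 81.0 CPM in the doxycycline libraries, against 32.9, 29.8 and 19.7 CPM in the control libraries. It rose by 1.67 on the log2 scale (SE 0.22, edgeR adjusted p = 0.00126). Ifngr1, the ligand-binding chain for type II interferon, rose by 1.46 on the log2 scale (SE 0.15, edgeR adjusted p = 4.45e-04), and Ifnar1, a chain of the type I receptor, rose by 0.82 on the log2 scale (SE 0.17, edgeR adjusted p = 0.00821). Each of the 3 receptor classes thus had 1 chain that was higher with doxycycline. No other receptor chain of this list passed, and 9 of the 15 genes did not pass. Stat3, which answers cytokines of the interleukin-6 group, rose by 1.70 on the log2 scale (SE 0.15, edgeR adjusted p = 2.47e-04). Its feedback inhibitor Socs3 rose by 1.57 on the log2 scale (SE 0.14, edgeR adjusted p = 2.68e-04). Jak2 rose by 0.65 on the log2 scale (SE 0.15, edgeR adjusted p = 0.0114). The call for Jak2 was lost without doxycycline 3 (edgeR adjusted p = 0.0595) and with total counts as scaling (adjusted p = 0.288). That for Ifnar1 was lost with total counts as scaling (edgeR adjusted p = 0.105).

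Of the 14 upstream nucleic acid sensing genes 13 were tested, and 2 rose and 4 fell, where 21.7% of all genes rose and 23.6% fell. Their median was -0.24. Without control replicate 3, 3 were higher and 6 lower, where 34.9% of all genes were higher and 35.1% lower. Cgas, the sensor of cytoplasmic DNA, fell by 2.17 on the log2 scale (SE 0.21, edgeR adjusted p = 3.40e-04). Tmem173, listed by the annotation as Sting1, its adaptor, had 0.303, 0 and 0 CPM in the doxycycline libraries, against 1.99, 1.69 and 6.04 CPM in the control libraries. Over the group this is 3 counts with doxycycline and 116 in the controls, a scaled ratio of 0.0297 (95% counting interval 0.00604 to 0.0890). It fell by 5.02 on the log2 scale (SE 1.06, edgeR adjusted p = 0.00862), an estimate that ranged from -8.37 without doxycycline replicate 1 to -4.25 without control replicate 3, with -4.34 without doxycycline replicate 3. The sensor and the adaptor of this DNA route thus both fell. Irf8, a factor best known in myeloid cells, fell by 1.69 on the log2 scale (SE 0.19, edgeR adjusted p = 6.00e-04). Ticam1, the adaptor of Tlr3, rose by 1.48 on the log2 scale (SE 0.16, edgeR adjusted p = 5.63e-04). Tlr3, a sensor of double-stranded RNA in endosomes, rose by 0.92 on the log2 scale (SE 0.26, edgeR adjusted p = 0.0271), and Rnf135, a ubiquitin ligase for RIG-I, fell by 0.93 on the log2 scale (SE 0.29, edgeR adjusted p = 0.0372). Tlr3 and Rnf135 were picked with their values in view. The call for Tlr3 was lost without control 1, doxycycline 1, doxycycline 2 or doxycycline 3 (edgeR adjusted p = 0.0507 to 0.0835) and with total counts as scaling (adjusted p = 0.162). For Rnf135 it was lost without control 1, doxycycline 1, doxycycline 2 or doxycycline 3 (edgeR adjusted p = 0.0635 to 0.118).

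Of 42 further interferon-stimulated genes 29 were tested, and 12 rose and 3 fell, with a median of 1.04, where 21.7% of all genes rose and 23.6% fell. Of 30 tested without control replicate 3, 19 were higher and 5 lower, where 34.9% of all genes were higher and 35.1% lower. Trim30a, a ubiquitin ligase of the Trim family, had 9.51, 8.51 and 10.2 CPM in the doxycycline libraries, against 0.585, 0.154 and 0 CPM in the control libraries. It rose by 4.997 on the log2 scale (SE 0.64, edgeR adjusted p = 0.00110), and 6.60 without control replicate 1. Apol9a, an apolipoprotein L gene, had 6.67, 7.40 and 5.44 CPM in the doxycycline libraries, against 0.468, 0 and 0.201 CPM in the control libraries. It rose by 4.69 on the log2 scale (SE 0.65, edgeR adjusted p = 0.00157), and its estimate was 6.03 without control replicate 1. Apol9a and Apol9b are near copies, so their split is uncertain. Parp12, an ADP-ribosyltransferase, rose by 1.79 on the log2 scale (SE 0.18, edgeR adjusted p = 3.89e-04). The others that rose were Oas3, Apol9b, Ddx60, Samd9l, Oasl1, Irgm2, Igtp, Gbp7 and Ube2l6, at 1.06 to 3.65 on the log2 scale. Without control replicate 3 the estimate was 4.44 for Oas3, 2.42 for Oasl1, 3.99 for Apol9b and 2.31 for Igtp, and without control replicate 1 it was 4.34 for Ddx60. The call for Gbp7 was lost without control 1, doxycycline 1, doxycycline 2 or doxycycline 3 (edgeR adjusted p = 0.0619 to 0.120) and with total counts as scaling (adjusted p = 0.0697). For Igtp it was lost without control 1, control 2, doxycycline 1, doxycycline 2 or doxycycline 3 (edgeR adjusted p = 0.0624 to 0.126) and with total counts as scaling (adjusted p = 0.0846). That for Ube2l6 was lost without control 1, control 2, doxycycline 1, doxycycline 2 or doxycycline 3 (edgeR adjusted p = 0.0810 to 0.104) and with total counts as scaling (adjusted p = 0.147).

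The change was not in 1 direction. Ifitm3, which blocks fusion of viruses in endosomes and is known to be active in intestinal crypts, had 0.202, 0.370 and 0.848 CPM in the doxycycline libraries, against 54.3, 57.7 and 116 CPM in the control libraries. It fell by 7.20 on the log2 scale (SE 0.55, edgeR adjusted p = 1.71e-04), and its estimate was -7.97 without doxycycline replicate 3. Its neighbour Ifitm2 fell by 2.43 on the log2 scale (SE 0.39, edgeR adjusted p = 0.00272), and Irgm1, an immunity-related GTPase, fell by 0.89 on the log2 scale (SE 0.25, edgeR adjusted p = 0.0262). The call for Irgm1 was lost without control 1, control 2, doxycycline 1, doxycycline 2 or doxycycline 3 (edgeR adjusted p = 0.0532 to 0.104). Stem cell markers fell in the same libraries, and their part in the values of Ifitm2 and Ifitm3 was not tested. All genes of this list named here other than Ifitm3, Parp12, Trim30a and Apol9a were picked with their values in view.

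Of 24 further MHC class I pathway genes 21 were tested, and 4 rose and 1 fell, with a median of -0.03, where 21.7% of all genes rose and 23.6% fell. With control replicate 3 left out, 7 were higher and 6 lower, where 34.9% of all genes were higher and 35.1% lower. H2-Q1 had 96.9, 109.9 and 104 CPM in the doxycycline libraries, against 23.5, 19.2 and 15.5 CPM in the control libraries. It rose by 2.41 on the log2 scale (SE 0.20, edgeR adjusted p = 2.02e-04). H2-Q2 rose by 1.45 on the log2 scale (SE 0.20, edgeR adjusted p = 0.00153). Both are class I genes of the Q region, and doxycycline libraries of H2-Q1 all lay above the controls. H2-T22, a ligand of some gamma delta T cells, rose by 0.98 on the log2 scale (SE 0.23, edgeR adjusted p = 0.0118). H2-T23, which encodes Qa-1, rose by 0.62 on the log2 scale (SE 0.19, edgeR adjusted p = 0.0330). The call for H2-T23 was lost without control 1, control 2, doxycycline 1, doxycycline 2 or doxycycline 3 (edgeR adjusted p = 0.0625 to 0.108), with total counts as scaling (adjusted p = 0.472) and without the low-count filter (adjusted p = 0.0551). For H2-T22 it was lost without doxycycline 3 (edgeR adjusted p = 0.0505) and with total counts as scaling (adjusted p = 0.0851). H2-Q6, picked for its values, fell by 0.95 on the log2 scale (SE 0.32, edgeR adjusted p = 0.0442). The call for H2-Q6 was lost without control 1, control 2, control 3, doxycycline 1, doxycycline 2 or doxycycline 3 (edgeR adjusted p = 0.0609 to 0.147), without the low-count filter (adjusted p = 0.0679) and with limma-voom (adjusted p = 0.0530). Psmb8, an immunoproteasome subunit also picked so, averaged 0.135 ± 0.234 CPM in the doxycycline libraries and 1.05 ± 0.515 CPM in the controls (SD, n = 3 each). Of 8 MHC class II genes 1 was tested. This was H2-DMa, likewise picked, which did not pass (log2 fold change 0.12, SE 0.71, edgeR adjusted p = 0.910).

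**Figure D4:**
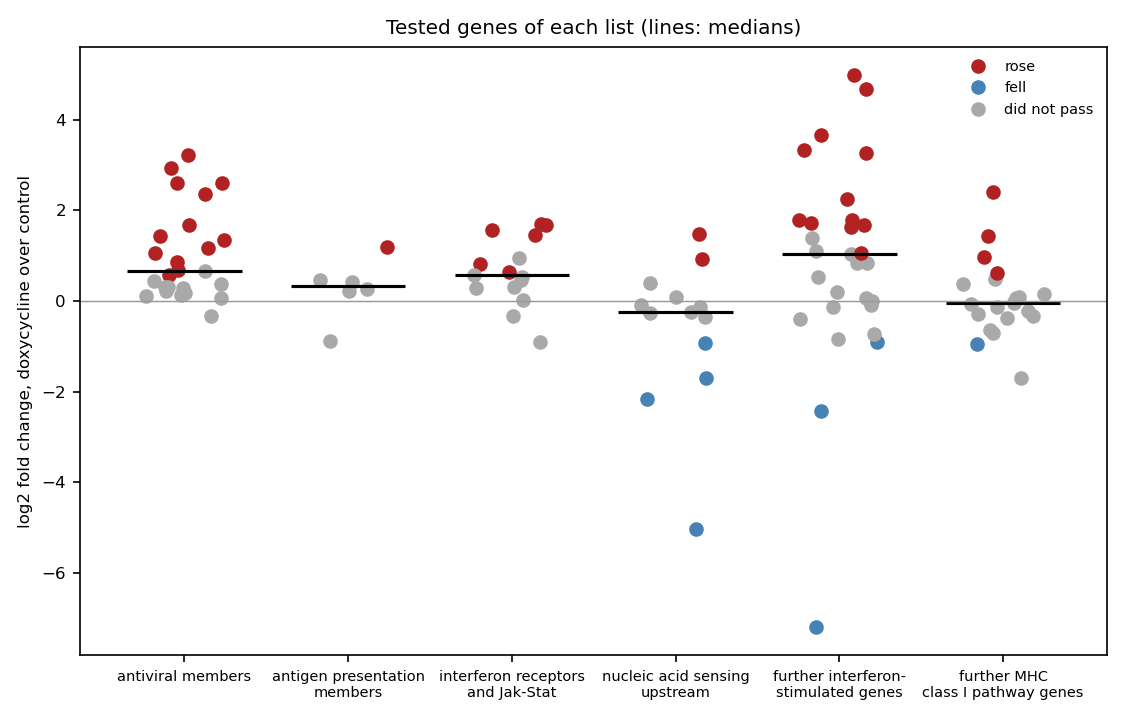
Log2 fold change of doxycycline over control for each tested gene of the 2 member arms and of 4 pathway lists; points are genes, colour gives whether the gene rose, fell or did not pass the edgeR test, and lines are medians. The antiviral and the further interferon-stimulated genes have medians of 0.67 and 1.04, and nucleic acid sensing genes have a median of -0.24.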

How the data were processed

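The deposited table holds whole-number read counts per Entrez gene for 6 libraries, not normalized by the authors as far as the values show. Per the labels' protocols, TruSeq libraries of column-purified RNA were read on an Illumina NextSeq. The submitters' processing notes name the build mm10. The aligner, counting tool, annotation and strand setting are not given in the sources used here. Counts of overlapping genes and near copies are therefore uncertain. Symbols and positions came from RefSeq's table of GRCm38.p6 (mm10), where 24570 of 24594 IDs were found, and exon lengths from GENCODE M21. Tmem173 was matched as a synonym of Sting1.

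Groups came from the treatment in the labels. Counts were tested with edgeR 4.0.16 in R 4.3.3, with the expression filter by group, TMM scaling, the robust quasi-likelihood F-test and Benjamini-Hochberg adjustment over all 12909 genes tested, at 0.05. The steps were tested on simulated data. CPM are on TMM-scaled library sizes, with factors of 0.843 to 0.879 in the doxycycline libraries and 1.163 to 1.169 in the control libraries. The median over all genes tested was -0.08 on the log2 scale with TMM and -0.52 with unscaled totals, and every direction given refers to TMM. SE is the fold change over the square root of F. P-values measure the spread between these libraries.

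The members and lists were chosen with earlier results of these data known. Values in every library are given for antigen presentation genes tested, for interferon regulatory factors and Stat2, and for antiviral genes that passed. Of each pathway list, up to 4 genes with the smallest adjusted p are named, and every receptor, Jak and Stat gene that changed; others are named as chosen after their values were seen. The alternatives were other scalings, filters and tools (DESeq2 1.42.0, limma-voom of limma 3.58.1), the replicate number as a block, leaving out each library and a threshold of 0.01.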

Additional observations from a re-analysis of the deposited data

How the results depend on the processing

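Scaled by total counts alone, the data gave 1747 genes higher and 5131 lower with doxycycline, against 2800 and 3050 with TMM; 8 antiviral genes were higher, against 13, with a median log2 fold change of 0.23, and in antigen presentation 0 were higher and 1 (B2m) lower, with a median of -0.10. On that scale these genes turned negative, none with an adjusted p under 0.05: Irf1 (-0.27), Irf2 (-0.38), Irf9 (-0.067), Ifit2 (-0.34), Eif2ak2 (-0.12), Adar (-0.32), Bst2 (-0.0072), Parp9 (-0.15), Dtx3l (-0.22), Ifi35 (-0.16), H2-K1 (-0.18), H2-D1 (-0.026), Tapbp (-0.21) and H2-DMa (-0.33). The median of all genes tested was -0.08 with TMM and -0.52 with total counts, and which scaling is nearer the truth was not tested. At a threshold of 0.01, by construction stricter, 1780 genes were higher and 1697 lower, with 5 antiviral and 0 antigen presentation genes higher. Leaving out 1 library in turn gave 1945 to 4632 genes higher and 1888 to 4654 lower, 5 to 17 antiviral genes higher, 0 to 5 antigen presentation genes higher and 0 to 1 lower, with antiviral medians of 0.57 to 0.70 and antigen presentation medians of 0.16 to 0.64. The antiviral count was 8 without control replicate 1, 7 without doxycycline replicate 2 and 5 without doxycycline replicate 3. The sign of genes that did not pass turned for Ifit2 (-0.27) and Adar (-0.027), for Dtx3l (-0.0027) and for H2-DMa (-0.38) without control replicate 3 and for Ifit2 (-0.14) without doxycycline replicate 2. The highest values with 1 library left out were 0.46 for Ifit2, 0.27 for Adar, 0.40 for Dtx3l and 0.49 for H2-DMa. Beyond the construction of these fits, with fewer samples, the cause was not tested.

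Same-numbered libraries did not deviate together (r = -0.299, 0.119 and -0.187). Deviations from a mean of 3 libraries are tied to each other, and control replicate 3 stood apart from the other controls. These values therefore cannot decide whether the numbers pair the samples. With the replicate number as a block, 2261 genes were higher and 2248 lower, with 9 antiviral and 0 antigen presentation genes higher. Stat2, Ddx58, Ifih1, Rtp4 and Tap2 no longer passed among the members. Among the named pathway genes the block also lost the calls for Jak2, H2-T23, Gbp7, Igtp, Irgm1, Rnf135 and H2-Q6 (edgeR adjusted p = 0.0512 to 0.118). Without a filter on low counts Gbp2 passed (edgeR adjusted p = 0.0252) and Stat2 did not (0.0539). DESeq2 called 14 antiviral genes higher, with Eif2ak2 added. Ifit1, Mx1, Rsad2, Oasl2 and Xaf1 passed under all 13 alternatives at 0.05. Depth limits Oas1a, Oas2, Gbp2, Usp18 and Nlrc5, at 0 to 21 counts per group.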
